A study of Mus musculus with 9 samples.

Results

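Cholesterol and fatty acid synthesis was described in mouse B cells through 33 genes chosen by name, all of them rows of the 22178-gene table. They were 17 enzymes of sterol synthesis, 6 genes that sense, regulate or move sterols, and 10 genes that make, elongate or desaturate fatty acids. RNA was sequenced from 3 groups with 3 libraries each. B2B1 cells were peritoneal cavity cells of the strain labelled B1-8VH12/Vk4, taken about 30 days after their B cell receptor (BCR) had been switched. B1 cells, a self-renewing B cell class of the body cavities, were also peritoneal and carried the same strain label. B2 cells, the conventional recirculating kind, were splenic cells of the strain labelled VH12B1-8/Vk4. All mice had a backcrossed C57BL/6 background. Tissue and strain label differed together with the cell type in both comparisons with B2, so that these 3 cannot be told apart there, and only the comparison of B2B1 with B1 was made within one tissue and strain label. Ages, sexes, the driver of the switch, sort gates, and whether the 3 libraries per group represent separate or pooled mice were not stated, so the p-values cover only library-to-library spread, which may be technical.

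Cells build cholesterol from acetyl-CoA, by way of mevalonate, isoprenoid pyrophosphates and squalene, which is closed into a sterol nucleus and then trimmed. Fatty acids start from the same acetyl-CoA, which is carboxylated, assembled by fatty acid synthase and then lengthened and desaturated. Both routes are driven by the SREBP transcription factors, which the escort protein Scap carries out of the endoplasmic reticulum when sterols run low and which Insig proteins hold back when sterols are plentiful. Lymphocytes that divide draw on both routes to build new membrane.

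Values were TPM, a length-corrected share of a library's transcripts, which keep no read counts, so the depth of the libraries is unknown. All 8 B cell markers were present, at 24.8 to 3519 TPM. The 12 macrophage markers in the table summed to 72.6 to 274 TPM in B2B1, 24.6 to 58.8 TPM in B1 and 1.97 to 2.98 TPM in B2. Their leading genes were Lyz2 and Emr1, while Gata6 and Mertk stayed under 1 TPM in every library. C1qa, C1qb and C1qc were at 1.43 to 11.7 TPM in B2B1, 0.0697 to 2.25 TPM in B1 and 0 to 0.422 TPM in B2. Mrc1 was at 2.33 to 4.87, 3.15 to 8.60 and 0.0233 to 0.0710 TPM in B2B1, B1 and B2. Cd14, Csf1r, Timd4 and Marco were at 1.45, 2.13, 2.01 and 2.04 TPM in B2B1 library 1 and under 1 TPM in every other library. The 6 T cell markers summed to 5.65 to 8.91, 16.6 to 19.4 and 7.01 to 8.92 TPM in B2B1, B1 and B2. Of 8 adipocyte and mesothelium markers, 7 were listed at 0 in all 9 libraries. The 16 dividing-cell markers summed to 587, 439 and 410.1 TPM in B2B1 libraries 1 to 3, 311, 566 and 314 TPM in the B1 libraries and 351, 336 and 362 TPM in the B2 libraries. Xist, transcribed from the inactive X chromosome, was 0.355 to 0.461 TPM and the Y-linked Ddx3y at 56.9 to 75.3 TPM in B2B1 libraries 1 and 2 and in B2 library 2, whereas no B1 library had this pattern. Low Xist with Ddx3y transcript is the pattern of male cells, and the labels give no sex, so Xist status was also fitted as a term. In bulk libraries, fewer cells that express a gene and less RNA of it per cell cannot be told apart.

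Most sterol genes had lower values in both peritoneal groups than in splenic B2 cells. A gene was called at a limma adjusted p under 0.05, computed over 11099 genes on log2(TPM + 1), the scale of every log2 fold change given here. In B2B1 against B2, 14 of the 23 sterol genes were lower, 3 were higher and 6 were not called, and their median log2 fold change was −0.51 against −0.19 over all tested genes. Of all tested genes, 63% were called in this comparison, 42% as lower and 21% as higher, while 60.9% of the sterol genes were called as lower and 13.0% as higher. In B1 against B2, again 14 of 23 were lower, 1 was higher and 8 were not called, with a median of −0.61 against −0.14 over all tested genes. Of all tested genes, 51.9% were called there, 33.9% as lower and 18% as higher. Values did not overlap between the groups for 16 of 23 sterol genes in B2B1 against B2 (72.2% of all tested genes) and for 16 of 23 in B1 against B2 (61.7% of all tested genes). Both comparisons use the same B2 libraries, so their values are given side by side.

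The fatty acid genes had no such common direction. In B2B1 against B2, 2 of the 9 tested were lower (Elovl5, Scd1), 1 was higher (Fads1) and 6 were not called, with a median log2 fold change of −0.091. That is 33.3% called, 22.2% lower and 11.1% higher. Over all tested genes 63% were called, 42% lower and 21% higher, with a median of −0.19. In B1 against B2, 2 were lower (Elovl6, Scd1), 2 were higher (Acly, Fads1) and 5 were not called, with a median of −0.042. That is 44.4% called, 22.2% in each direction. Over all tested genes 51.9% were called, 33.9% lower and 18% higher, with a median of −0.14. Between both peritoneal groups few members differed: in B2B1 against B1, 3 of 23 sterol genes (Mvd, Fdft1, Sqle) and 1 of 9 fatty acid genes (Fads1) were higher. No member was lower there by limma, against 5 of 32 at an unadjusted p under 0.05. Of all tested genes, 19% were called in B2B1 against B1, 6.93% as higher and 12.1% as lower. Groups did not overlap for 10 of the 32 tested members in B2B1 against B1, against 35.7% of all tested genes. Called with an absolute log2 fold change of at least 1 were 6 of the 32 in B2B1 against B2 (17.3% of all tested genes), 6 in B1 against B2 (13.3%) and 1 in B2B1 against B1 (3.72%), and these members are given library by library. Fads1 and Elovl6 reached the mean of 1 TPM needed for testing only through the groups in which they were high. Fads2, the delta-6 desaturase, was listed at 0 to 0.148 TPM and was not tested.

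The choice of scaling shifted all genes together. In TPM the median log2 fold change of all tested genes was −0.19 in B2B1 against B2, −0.14 in B1 against B2 and −0.056 in B2B1 against B1. Median-of-ratios scaling brought these to −0.0031, −0.00069 and −0.0020, and gave 3380 higher and 3171 lower calls over all genes in B2B1 against B2, against 2332 higher and 4663 lower in TPM. In B1 against B2 the calls were 2768 higher and 2547 lower with that scaling, against 2003 higher and 3762 lower in TPM. With that scaling 11 sterol genes were lower and 4 higher in B2B1 against B2, and 11 lower and 1 higher in B1 against B2. The split of the fatty acid genes in B2B1 against B2 turned to 3 higher (Acly, Elovl1, Fads1) and 1 lower (Scd1) with that scaling and with quantile normalization, against 1 higher and 2 lower in TPM. For B1 against B2 it was 2 higher and 1 lower with median-of-ratios scaling and 1 higher and 2 lower with quantile normalization, against 2 higher and 2 lower in TPM. In B2B1 against B1, median-of-ratios scaling gave 4 higher and 0 lower sterol genes, with 1047 higher and 944 lower calls over all genes against 769 higher and 1339 lower in TPM. Of the 16 dividing-cell markers, 8 were higher and 1 was lower in B2B1 against B2 (21% and 42% of all tested genes). In B1 against B2, 1 was higher and 1 lower (18% and 33.9% of all tested genes), and in B2B1 against B1, 0 were called. Their part in the sterol and fatty acid results was not tested. The macrophage markers were higher in 6 of the 6 tested in B2B1 against B2 and in 2 of the 6 in both other comparisons. The shares higher over all tested genes were 21% in B2B1 against B2, 18% in B1 against B2 and 6.93% in B2B1 against B1. These 6 markers reached the mean of 1 TPM needed for testing only through the peritoneal groups. Their counts against B2 therefore rest partly on that filter. The part of the macrophage markers was not tested either. Without B2B1 library 1 and B1 library 2, which had the highest dividing-cell sums of their groups, 3 sterol genes were higher and 14 lower in B2B1 against B2, and 1 was higher and 15 lower in B1 against B2. Over all 11083 genes tested there, 2231 were higher and 4781 lower in B2B1 against B2, and 2085 and 4121 in B1 against B2. The libraries kept had dividing-cell sums of 439 and 410.1 TPM in B2B1 and 311 and 314 TPM in B1, beside 336 to 362 TPM in B2. Single markers in B1 libraries 1 and 3 went both ways from B2. Mki67 was 2.98 and 3.19 TPM against 1.10 to 2.04 TPM in B2, and Top2a 4.34 and 5.10 TPM against 2.53 to 3.84 TPM. Pcna, the largest part of the sum, was 147 and 151 TPM against 159 to 177 TPM in B2. The part of dividing cells was not tested by this setting.

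**Figure D1:**
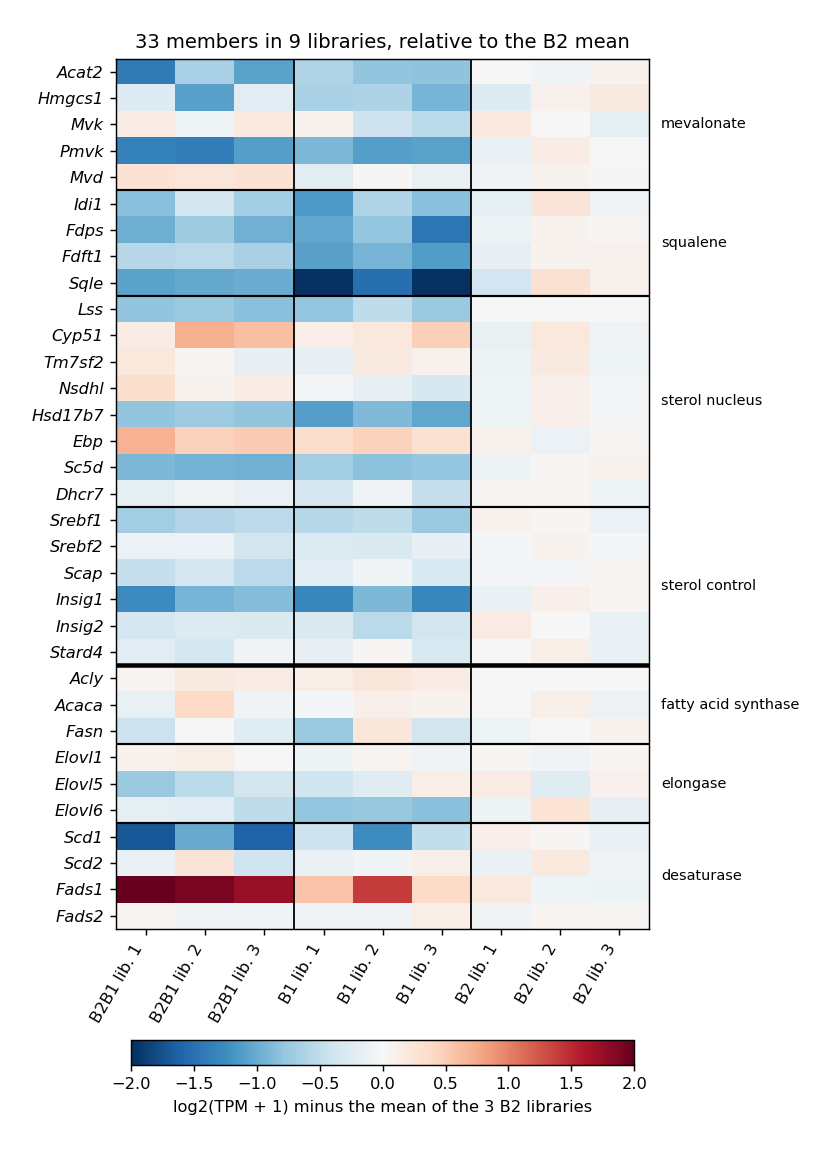
Heat map of the 33 members (rows, in pathway order) in the 9 libraries (columns, B2B1 left, then B1, then B2), coloured by log2(TPM + 1) minus the mean of the 3 B2 libraries, with colours capped at 2 either way. Blue, lower than the B2 mean, runs through most sterol rows of both peritoneal groups. Ebp, Cyp51, Acly and Fads1 are above the B2 mean in all 6 peritoneal columns, Acly only faintly.

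In the first steps, from acetyl-CoA to activated isoprene, Acat2 and Pmvk showed the clearest differences. Acat2, the cytosolic thiolase that joins acetyl-CoA units, had 8.17, 14.4 and 10.6 TPM in the B2B1 libraries, 15.03, 12.97 and 12.9 TPM in the B1 libraries, and 23.1, 22.3 and 24.4 TPM in the B2 libraries. Every peritoneal library was below every B2 library, and the B2B1 and B1 values overlapped. The log2 fold change was −1.04 ± 0.17 (SE, adjusted p = 0.00055 by limma) in B2B1 against B2 and −0.73 ± 0.17 (adjusted p = 0.00536) in B1 against B2. Of the 31-base words in Acat2 transcripts, 43.7% also occur in the neighbouring Acat3, which was at 0.198, 0.948 and 1.17 TPM on average in B2B1, B1 and B2, so reads of the pair may have been split. Pmvk, phosphomevalonate kinase, had 15.3, 15.1 and 18.5 TPM in the B2B1 libraries, 21.5, 18.6 and 18.98 TPM in the B1 libraries, and 37.3, 45.1 and 40.4 TPM in the B2 libraries. Its B2 values were the highest, and the B2B1 values lay just below the B1 values with no overlap. The log2 fold change was −1.28 ± 0.11 (SE, adjusted p = 1.03e-05 by limma) in B2B1 against B2 and −1.02 ± 0.11 (adjusted p = 5.87e-05) in B1 against B2. In GRCm38 (GENCODE M21), Acat2 lies on chromosome 17 from 12942890 to 12960747 and Pmvk on chromosome 3 from 89454541 to 89469013.

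Hmgcs1, the synthase that makes HMG-CoA, averaged 7.595 ± 2.62 TPM in B2B1, 6.17 ± 0.819 TPM in B1 and 10.9 ± 1.79 TPM in B2 (mean ± SD, n = 3 here and below). It was lower in B1 than in B2, with a log2 fold change of −0.73 ± 0.23 (SE, adjusted p = 0.0266 by limma), a call that ended without B2 library 2, B2 library 3 or B1 library 3 (−0.69 to −0.63, adjusted p = 0.0751 to 0.087) and with median-of-ratios scaling (−0.60, adjusted p = 0.0581). In B2B1 against B2 its log2 fold change was −0.51 ± 0.23 (adjusted p = 0.081), with overlapping values, and it passed only without B2B1 library 3 (−0.67, adjusted p = 0.0471). Mvk, mevalonate kinase, was not called in any comparison, at 4.797 to 6.02 TPM in B2B1, 3.24 to 5.43 TPM in B1 and 4.404 to 6.04 TPM in B2. It was called lower in B1 against B2 only without B1 library 1 (−0.47, adjusted p = 0.034). Mvd, which decarboxylates mevalonate pyrophosphate, averaged 25.4 ± 0.524 TPM in B2B1, 19.3 ± 1.85 TPM in B1 and 20.9 ± 1.06 TPM in B2, and was higher in B2B1 than in B2 by 0.27 ± 0.081 (SE, adjusted p = 0.0168 by limma) on the log2 scale. That call ended without B2 library 1 or B2 library 3 (0.24 to 0.26, adjusted p = 0.0502 to 0.0618). In B1 against B2 the log2 fold change of Mvd was −0.11 ± 0.081 (adjusted p = 0.273).

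The 4 genes that lead from isoprene units to squalene epoxide were all lower in both peritoneal groups than in B2. Lower calls over all tested genes were 42% in B2B1 against B2 and 33.9% in B1 against B2. Together they summed to 43.7 to 53.2 TPM in the B2B1 libraries, 31.7 to 45.2 TPM in the B1 libraries and 74.4 to 96.8 TPM in the B2 libraries. Sqle, squalene epoxidase, which puts oxygen on squalene and is one of the flux-limiting enzymes, had 7.61, 7.86 and 8.03 TPM in the B2B1 libraries, 3.02, 5.31 and 3.04 TPM in the B1 libraries, and 12.8, 21.2 and 18.1 TPM in the B2 libraries. The 3 groups did not overlap, with B1 lowest and B2 highest. Sqle had a log2 fold change of −1.03 ± 0.21 (SE, adjusted p = 0.0024 by limma) in B2B1 against B2 and −1.94 ± 0.21 (adjusted p = 7.92e-05) in B1 against B2. Fdps, farnesyl pyrophosphate synthase, had 18.4, 22.3 and 18.5 TPM in the B2B1 libraries, 17.5, 21.2 and 12.9 TPM in the B1 libraries, and 34.3, 39.1 and 37.8 TPM in the B2 libraries. All B2 values were above all others, and B2B1 overlapped B1. The log2 fold change of Fdps was −0.88 ± 0.16 (SE, adjusted p = 0.00116 by limma) in B2B1 against B2 and −1.09 ± 0.16 (adjusted p = 0.000482) in B1 against B2. Its exons share 1124 bases with Gm43738, a gene model on the same strand.

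Fdft1, squalene synthase, the first enzyme committed to sterols, had 5.47, 5.62 and 5.13 TPM in the B2B1 libraries, 3.49, 4.04 and 3.42 TPM in the B1 libraries, and 7.595, 9.07 and 9.16 TPM in the B2 libraries. No group overlapped another, and B2B1 stood between B1 and B2. The log2 fold change was −0.58 ± 0.11 (SE, adjusted p = 0.00129 by limma) in B2B1 against B2 and −1.04 ± 0.11 (adjusted p = 5.58e-05) in B1 against B2. Its exons share 774 bases with Ctsb on the opposite strand, which averaged 120.1, 108 and 38.2 TPM in B2B1, B1 and B2. No source used here says whether the authors' quantification used strand. Idi1, which isomerises isopentenyl pyrophosphate, averaged 14.6 ± 2.68 TPM in B2B1, 12.2 ± 2.46 TPM in B1 and 22.99 ± 4.003 TPM in B2, with log2 fold changes of −0.62 ± 0.18 (SE, adjusted p = 0.0135 by limma) in B2B1 against B2 and −0.86 ± 0.18 (adjusted p = 0.00338) in B1 against B2. The call in B2B1 against B2 ended without B2 library 2 (−0.49, adjusted p = 0.0522), with median-of-ratios scaling (−0.43, adjusted p = 0.0718) and with quantile normalization (−0.46, adjusted p = 0.0598). In GRCm38, Sqle lies on chromosome 15 from 59315077 to 59331192, Fdps on chromosome 3 from 89093588 to 89101959 and Fdft1 on chromosome 14 from 63145150 to 63179578.

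The 8 enzymes that close and trim the sterol nucleus did not move together. In B2B1 against B2, 3 were lower (Lss, Hsd17b7, Sc5d), 2 were higher (Cyp51, Ebp) and 3 were not called. In B1 against B2, 3 were lower, the same 3 genes, 1 was higher (Ebp) and 4 were not called. The share called was 62.5% in B2B1 against B2 and 50% in B1 against B2, near the 63% and 51.9% of all tested genes. Their summed level was 128 to 131 TPM in B2B1, 114 to 123 TPM in B1 and 127 to 136 TPM in B2, so that B2B1 and B2 overlapped. Hsd17b7, a ketosteroid reductase of the pathway, had 3.75, 3.97 and 3.72 TPM in the B2B1 libraries, 2.8, 3.45 and 2.99 TPM in the B1 libraries, and 6.696, 7.79 and 7.04 TPM in the B2 libraries. The groups kept apart, with B1 lowest. This amounted to −0.76 ± 0.11 (SE, adjusted p = 0.000244 by limma) in B2B1 against B2 and −1.004 ± 0.11 (adjusted p = 6.67e-05) in B1 against B2, and the gene lies on chromosome 1 from 169949535 to 169969241.

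Lss, lanosterol synthase, which folds squalene epoxide into the first sterol, averaged 4.68 ± 0.172 TPM in B2B1, 5.17 ± 0.653 TPM in B1 and 8.82 ± 0.0724 TPM in B2, with log2 fold changes of −0.79 ± 0.10 (SE, adjusted p = 0.000139 by limma) in B2B1 against B2 and −0.68 ± 0.10 (adjusted p = 0.00051) in B1 against B2. Sc5d, the C5 desaturase late in the pathway, averaged 16.5 ± 0.318 TPM in B2B1, 18.6 ± 0.858 TPM in B1 and 32.4 ± 1.97 TPM in B2. Its log2 fold changes were −0.93 ± 0.071 (SE, adjusted p = 6.72e-06 by limma) in B2B1 against B2, the smallest adjusted p of the tested members there, and −0.77 ± 0.071 (adjusted p = 3.03e-05) in B1 against B2. For both genes all B2 values were above all peritoneal values. Ebp, the sterol isomerase, an X-linked gene, was higher in both peritoneal groups. It averaged 40.1 ± 3.67 TPM in B2B1, 35.2 ± 2.09 TPM in B1 and 26.9 ± 2.03 TPM in B2, or 0.55 ± 0.088 (SE, adjusted p = 0.000533 by limma) as a log2 fold change in B2B1 against B2 and 0.37 ± 0.088 (adjusted p = 0.00639) in B1 against B2. Cyp51, lanosterol demethylase, averaged 29.8 ± 5.93 TPM in B2B1, 25.3 ± 3.39 TPM in B1 and 20.7 ± 2.86 TPM in B2. Its log2 fold change of 0.49 ± 0.16 (SE, adjusted p = 0.0252 by limma) in B2B1 against B2 came with overlapping values, since B2B1 library 1 (23.1 TPM) lay below B2 library 2 (24 TPM). That call ended without B2 library 1, B2 library 3, B2B1 library 2 or B2B1 library 3 (0.38 to 0.45, adjusted p = 0.0734 to 0.0892) and with Xist status as a term (0.46, adjusted p = 0.0546).

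Tm7sf2 (a sterol reductase), Nsdhl (the X-linked decarboxylating dehydrogenase) and Dhcr7 (the reductase of the last step) were not called in any comparison. Tm7sf2 was at 6.17 to 8.35 TPM in B2B1, 6.17 to 8.18 TPM in B1 and 6.55 to 8.15 TPM in B2, with a 95% interval of −0.30 to 0.34 for its log2 fold change in B2B1 against B2. Exons of Tm7sf2 share 532 bases with Vps51 on the same strand, which averaged 30.0, 32.2 and 37.7 TPM in B2B1, B1 and B2. Nsdhl averaged 11.7 ± 1.17 TPM in B2B1, 8.97 ± 1.001 TPM in B1 and 10.2 ± 0.767 TPM in B2. It was called higher in B2B1 against B2 only with median-of-ratios scaling (0.37, adjusted p = 0.0117) and quantile normalization (0.31, adjusted p = 0.026). Dhcr7 averaged 15.8 ± 0.826 TPM in B2B1, 14.1 ± 2.25 TPM in B1 and 17.4 ± 0.871 TPM in B2, and its log2 fold change in B1 against B2 was −0.29 ± 0.11 (adjusted p = 0.0507). Dhcr7 was called lower there without B1 library 2 (−0.40, adjusted p = 0.00433) and with library weights (−0.35, adjusted p = 0.00807). A replicate block (−0.29, adjusted p = 0.035) and a mean of at least 5 TPM (−0.29, adjusted p = 0.0453) also gave that call.

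Of the 6 genes that sense, regulate or move sterols, 5 were lower in B2B1 and 4 in B1 than in B2, and none was higher (limma, with 0 higher also at an unadjusted p under 0.05). These are 83.3% and 66.7% lower, beside 42% and 33.9% of all tested genes. Insig1, which retains the SREBP and Scap complex in the endoplasmic reticulum and is itself an SREBP target, had 11.98, 15.4 and 16.2 TPM in the B2B1 libraries, 11.7, 15.8 and 11.7 TPM in the B1 libraries, and 27.5, 32.6 and 31.1 TPM in the B2 libraries. All B2 values were above all peritoneal values, and B2B1 overlapped B1. The log2 fold change was −1.02 ± 0.14 (SE, adjusted p = 0.000273 by limma) in B2B1 against B2 and −1.17 ± 0.14 (adjusted p = 0.000179) in B1 against B2. The gene lies on chromosome 5 from 28071363 to 28078662. Insig2, its paralog, averaged 20.2 ± 0.466 TPM in B2B1, 18.9 ± 1.74 TPM in B1 and 25.2 ± 2.84 TPM in B2, with log2 fold changes of −0.30 ± 0.097 (SE, adjusted p = 0.0241 by limma) in B2B1 against B2 and −0.39 ± 0.097 (adjusted p = 0.00856) in B1 against B2. The call in B2B1 ended without B2 library 1, B2 library 2, B2B1 library 1 or B2B1 library 3 (−0.30 to −0.22, adjusted p = 0.0536 to 0.0935) and with quantile normalization (−0.11, adjusted p = 0.336). With median-of-ratios scaling the calls of Insig2 ended in B2B1 (−0.10, adjusted p = 0.394) and in B1 (−0.25, adjusted p = 0.0595), each against B2. The ratio of Insig2 to Insig1 TPM was 1.25 to 1.64 in B2B1, 1.08 to 1.75 in B1 and 0.721 to 1.02 in B2.

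Srebf1, the SREBP gene tied mainly to fatty acid genes, averaged 27.8 ± 1.68 TPM in B2B1, 27.7 ± 2.35 TPM in B1 and 42.6 ± 2.96 TPM in B2. Its log2 fold change was −0.60 ± 0.086 (SE, adjusted p = 0.000296 by limma) in B2B1 against B2 and −0.61 ± 0.086 (adjusted p = 0.000402) in B1 against B2, and no peritoneal library reached the lowest B2 library. Srebf2, tied mainly to sterol genes, was the most abundant of the 23 sterol genes in all 3 groups, at 136 ± 13.6 TPM in B2B1, 132 ± 5.88 TPM in B1 and 156 ± 6.32 TPM in B2. It was called lower in both, with log2 fold changes of −0.20 ± 0.078 (SE, adjusted p = 0.0465 by limma) in B2B1 and −0.24 ± 0.078 (adjusted p = 0.0291) in B1, each against B2. Both calls ended under other settings. With median-of-ratios scaling the log2 fold change of Srebf2 was 0.0013 in B2B1 against B2 (adjusted p = 0.99) and −0.096 in B1 against B2 (adjusted p = 0.392). The calls also ended without B2 library 1, B2 library 2, B2 library 3, B2B1 library 3, B1 library 1, B1 library 2 or B1 library 3 (−0.23 to −0.12, adjusted p = 0.0507 to 0.147) in B2B1 against B2, and without B2 library 1, B2 library 2, B2 library 3, B1 library 1 or B1 library 2 (−0.26 to −0.21, adjusted p = 0.0526 to 0.0968) in B1 against B2. Scap, the escort of both SREBPs, averaged 34.6 ± 2.54 TPM in B2B1, 41.4 ± 3.84 TPM in B1 and 47.3 ± 1.05 TPM in B2. It was lower in B2B1 than in B2, with a log2 fold change of −0.44 ± 0.082 (SE, adjusted p = 0.00133 by limma). In B1 against B2 Scap gave −0.19 ± 0.082 (adjusted p = 0.0765), which passed without B1 library 2 (−0.26, adjusted p = 0.0187) and with library weights (−0.23, adjusted p = 0.021). Stard4, a sterol carrier, was not called, at 11.7 to 14.3 TPM in B2B1, 12.1 to 15.3 TPM in B1 and 13.7 to 16.4 TPM in B2.

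**Figure D2:**
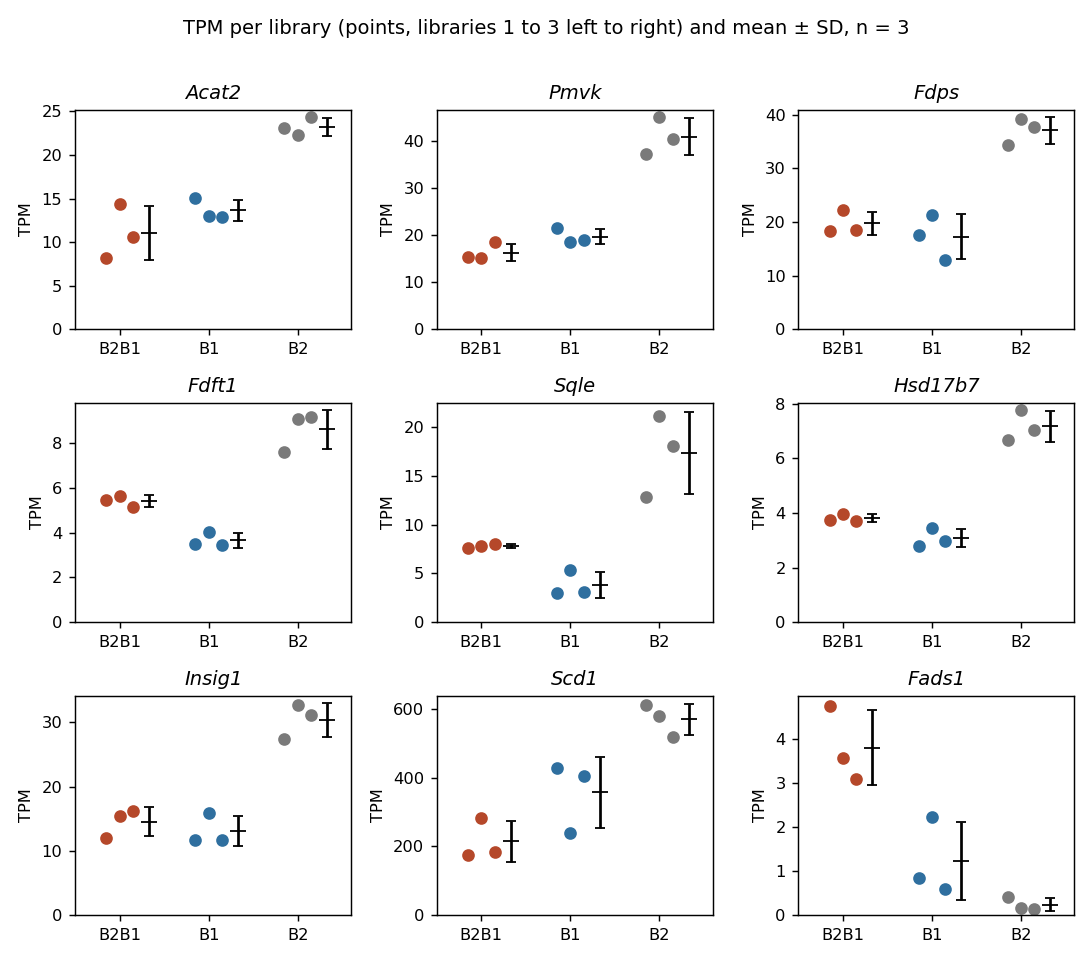
TPM of the members that were called with an absolute log2 fold change of at least 1 in any comparison, 1 panel per gene, with 1 point per library and the mean ± SD of 3 libraries beside them (B2B1 left, then B1, then B2). All panels but that of Fads1 are highest in B2, while Fads1 is highest in B2B1 (3.80 TPM on average) and lowest in B2 (0.233 TPM).

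Promoter windows of the members were read because SREBP target genes are known by short motifs near their starts. RefSeq windows (GRCm38.p6) from 250 bases before to 50 bases after the start were available for 26 of the 33 members, 19 of them sterol genes, and were searched on both strands. The sterol regulatory element core TCACNCCAC was in 1 of the 26, Hmgcs1, and in 1.44% of 27025 genes with a window. CACGTG, an E-box, was in 5 of the 19 sterol genes (26.3%) and 1 of the 7 fatty acid genes, against 8.09% of all genes. CCAAT, the NF-Y motif, was in 17 of the 19 sterol genes (89.5%) and 4 of the 7 fatty acid genes, against 41.1% of all genes. GGGCGG, the Sp1 motif, was in 18 of the 19 sterol genes (94.7%) and 3 of the 7 fatty acid genes, against 38.2% of all genes. Mvd, Cyp51 and Ebp, which were higher in B2B1 than in B2, held CCAAT and GGGCGG too. These are matches of letters, not sites of binding. The 27025 genes with a window outnumber the 11099 tested genes, so the background holds genes not tested here. Every member but Fads2 was tested, so the background is unlike the members. How much of the differences in share comes from that was not tested.

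The windows of 4 sterol genes that were lower in at least one peritoneal group are shown, that of Hmgcs1 for the sterol regulatory element core and those of Hsd17b7, Sc5d and Insig1 for the E-box. The other two sterol genes with an E-box were Scap, also lower in B2B1 against B2, and Dhcr7, which was not called, and their windows are not shown. Each runs 5′ to 3′ on the strand of its gene, with TCACNCCAC, CACGTG and CCAAT in either orientation (ATTGG when inverted) in capitals. The windows are chr13:119690101-119690400 (plus strand) for Hmgcs1, chr1:169969156-169969455 (minus strand) for Hsd17b7, chr9:42264251-42264550 (minus strand) for Sc5d and chr5:28071162-28071461 (plus strand) for Insig1.
Hmgcs1: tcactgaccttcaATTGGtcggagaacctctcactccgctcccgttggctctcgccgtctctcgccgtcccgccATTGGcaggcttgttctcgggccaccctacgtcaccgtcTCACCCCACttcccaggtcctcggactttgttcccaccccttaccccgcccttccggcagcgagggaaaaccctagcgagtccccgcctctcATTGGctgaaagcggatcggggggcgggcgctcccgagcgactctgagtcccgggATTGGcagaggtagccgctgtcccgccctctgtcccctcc
Hsd17b7: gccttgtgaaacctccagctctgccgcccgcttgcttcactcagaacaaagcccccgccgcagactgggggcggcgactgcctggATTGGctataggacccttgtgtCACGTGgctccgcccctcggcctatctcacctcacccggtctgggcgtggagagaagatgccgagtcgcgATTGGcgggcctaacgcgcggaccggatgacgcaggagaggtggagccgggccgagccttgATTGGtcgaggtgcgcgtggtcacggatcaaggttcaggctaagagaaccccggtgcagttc
Sc5d: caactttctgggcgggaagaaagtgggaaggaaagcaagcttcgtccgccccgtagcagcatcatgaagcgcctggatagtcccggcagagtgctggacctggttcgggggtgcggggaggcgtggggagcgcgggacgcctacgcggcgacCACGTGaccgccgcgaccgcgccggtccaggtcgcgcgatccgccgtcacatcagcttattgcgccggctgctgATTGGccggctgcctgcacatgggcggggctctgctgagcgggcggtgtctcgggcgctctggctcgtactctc
Insig1: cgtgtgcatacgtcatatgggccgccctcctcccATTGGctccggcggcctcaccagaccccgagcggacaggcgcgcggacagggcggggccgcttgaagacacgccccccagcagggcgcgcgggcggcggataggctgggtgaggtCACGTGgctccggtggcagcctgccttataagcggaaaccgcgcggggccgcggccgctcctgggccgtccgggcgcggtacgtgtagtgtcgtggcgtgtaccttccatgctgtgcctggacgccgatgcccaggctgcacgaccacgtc
In Hmgcs1, 128 bases lie between the core and the start, and 137, 92 and 95 bases lie between the E-box and the start in Hsd17b7, Sc5d and Insig1. Hmgcs1 has 4 inverted CCAAT matches in the window, Hsd17b7 has 3, and Sc5d and Insig1 have 1 each.

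Among the fatty acid genes, Scd1, the stearoyl-CoA desaturase that makes oleate and palmitoleate, was the most abundant in all 3 groups. Scd1 had 175, 283 and 185 TPM in the B2B1 libraries, 428, 239 and 405 TPM in the B1 libraries, and 611, 580.5 and 521 TPM in the B2 libraries. No peritoneal library reached the lowest B2 library, and B2B1 library 2 and B1 library 2 were the pair that made the peritoneal groups overlap. Its log2 fold change was −1.44 ± 0.24 (SE, adjusted p = 0.000703 by limma) in B2B1 against B2. In B1 against B2 it was −0.72 ± 0.24 (adjusted p = 0.0322), a call that ended without B2 library 1, B2 library 2, B2 library 3 or B1 library 2 (−0.78 to −0.45, adjusted p = 0.0533 to 0.0922) and with median-of-ratios scaling (−0.57, adjusted p = 0.091) or Xist status as a term (−0.67, adjusted p = 0.0683). Its mean level over the 9 libraries was above that of 97.6% of tested genes. Scd1 gave 38.1 to 46.2% of the summed TPM of the 10 fatty acid genes in B2B1, 41.9 to 59.96% in B1 and 61.8 to 65.6% in B2. Without it the sum was 285 to 329 TPM in B2B1, 286 to 331 TPM in B1 and 311 to 321 TPM in B2, with overlapping ranges.

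Scd2, a second stearoyl-CoA desaturase whose gene neighbours Scd1 on chromosome 19, was not called, at 33.99 to 54.5 TPM in B2B1, 40.8 to 49.2 TPM in B1 and 41.3 to 52.05 TPM in B2, and the 95% interval of its log2 fold change was −0.46 to 0.28 in B2B1 against B2. The ratio of Scd1 to Scd2 TPM was 4.25 to 5.43 in B2B1, 5.47 to 10.5 in B1 and 11.2 to 14.8 in B2. Fads1, the delta-5 desaturase of polyunsaturated fatty acids, was the one fatty acid gene higher in every comparison. Fads1 had 4.74, 3.56 and 3.09 TPM in the B2B1 libraries, 0.827, 2.23 and 0.592 TPM in the B1 libraries, and 0.402, 0.158 and 0.139 TPM in the B2 libraries. The 3 groups did not overlap, and B1 library 2 stood above the other 2 B1 libraries. Fads1 gave a log2 fold change of 1.95 ± 0.27 (SE, adjusted p = 0.000218 by limma) in B2B1 against B2 and 0.78 ± 0.27 (adjusted p = 0.035) in B1 against B2. The call in B1 ended without B2 library 1, B2 library 2, B2 library 3 or B1 library 2 (0.47 to 0.88, adjusted p = 0.0506 to 0.094) and with quantile normalization (0.41, adjusted p = 0.231) or Xist status as a term (0.81, adjusted p = 0.0527). B2B1 library 1, with the highest Fads1 value, also had the highest macrophage and dividing-cell marker sums (274 and 587 TPM). B1 library 2, with the highest Fads1 value of the B1 libraries, likewise had the highest sums of its group (58.8 and 566 TPM). The part of these markers in the Fads1 result was not tested. In GRCm38, Scd1 lies on chromosome 19 from 44394455 to 44407879 and Fads1 on chromosome 19 from 10182888 to 10196877.

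The enzymes at the start of fatty acid synthesis were mostly not called. Acly, ATP citrate lyase, which supplies cytosolic acetyl-CoA, averaged 111 ± 4.88 TPM in B2B1, 114 ± 4.403 TPM in B1 and 102 ± 0.482 TPM in B2. Its log2 fold change was 0.16 ± 0.054 (SE, adjusted p = 0.0325 by limma) in B1 against B2, a call that ended without B2 library 1, B2 library 2, B2 library 3, B1 library 2 or B1 library 3 (0.13 to 0.17, adjusted p = 0.0567 to 0.085) and with Xist status as a term (0.16, adjusted p = 0.0681). In B2B1 against B2 it was 0.12 ± 0.054 (adjusted p = 0.074), and the gene was called higher there without B2B1 library 1 (0.16, adjusted p = 0.0413), with median-of-ratios scaling (0.33, adjusted p = 0.000961) and with quantile normalization (0.24, adjusted p = 0.0061). Library weights (0.14, adjusted p = 0.0237) and no filter (0.12, adjusted p = 0.0496) also gave that call. Acaca, acetyl-CoA carboxylase of the cytosol, was at 11.7 to 17.7 TPM in B2B1, 12.96 to 14.2 TPM in B1 and 12.1 to 14.4 TPM in B2 and was not called, with a 95% interval of −0.26 to 0.38 in B2B1 against B2 and −0.27 to 0.37 in B1 against B2. Of the 31-base words in Acaca transcripts, 33.5% also occur in other genes, and 31.7% occur in Gm5182. Fasn, fatty acid synthase itself, was at 23.03 to 31.6 TPM in B2B1, 18.3 to 36.6 TPM in B1 and 29.3 to 33.1 TPM in B2. It was not called, with 95% intervals of −0.70 to 0.27 in B2B1 and −0.78 to 0.19 in B1, each against B2. The highest Fasn value was that of B1 library 2, and without that library Fasn was called lower in B1 against B2 (−0.55, adjusted p = 0.0149). Library weights also gave that call (−0.43, adjusted p = 0.0463).

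Elovl5, which elongates polyunsaturated fatty acids, averaged 47.6 ± 6.53 TPM in B2B1, 62.8 ± 12.7 TPM in B1 and 70.3 ± 10.3 TPM in B2 and was lower in B2B1 against B2, with a log2 fold change of −0.55 ± 0.16 (SE, adjusted p = 0.0156 by limma). That call ended without B2 library 1, B2 library 3 or B2B1 library 1 (−0.51 to −0.45, adjusted p = 0.0515 to 0.0598), with median-of-ratios scaling (−0.35, adjusted p = 0.112) and with quantile normalization (−0.38, adjusted p = 0.086). Elovl6, which takes palmitate to stearate, had the lowest mean over the 9 libraries of the tested members (1.08 TPM), though Fads1 was lower in B2. Elovl6 was at 0.821 to 1.29 TPM in B2B1, 0.456 to 0.536 TPM in B1 and 1.32 to 2.13 TPM in B2. The groups did not overlap, and its log2 fold change was −0.79 ± 0.17 (SE, adjusted p = 0.00402 by limma) in B1 against B2 and −0.30 ± 0.17 (adjusted p = 0.149) in B2B1 against B2. It was called in B2B1 against B2 with Xist status as a term (−0.42, adjusted p = 0.0339). Elovl1, an elongase of very long saturated chains, was not called, at 53.6 to 58.6 TPM in B2B1, 49.7 to 55.7 TPM in B1 and 51.02 to 55.4 TPM in B2. It was called higher in B2B1 against B2 with median-of-ratios scaling (0.27, adjusted p = 0.0076) and quantile normalization (0.24, adjusted p = 0.0122).

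**Figure D3:**
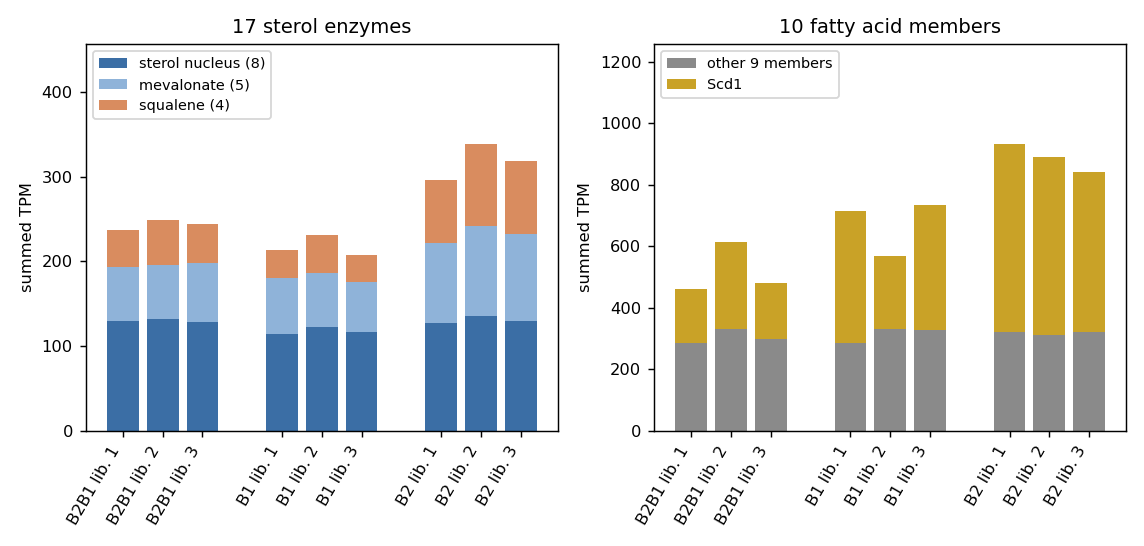
Summed TPM by library (B2B1 left, then B1, then B2) in stacked bars, of the 17 sterol enzymes by step (left panel) and of the 10 fatty acid genes as Scd1 and the other 9 (right panel). The squalene sums are 43.7 to 53.2 TPM in B2B1 and 31.7 to 45.2 TPM in B1 against 74.4 to 96.8 TPM in B2, and the fatty acid sums overlap once Scd1 is left out.

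Other genes of both pathways were taken from a list of 44, of which 42 were in the table and 32 were tested. In B2B1 against B2, 4 were higher and 13 lower, and in B1 against B2, 5 were higher and 13 lower. That is 12.5% higher and 40.6% lower in B2B1 (21% and 42% of all tested genes), and 15.6% higher and 40.6% lower in B1 (18% and 33.9% of all tested genes). Rnf145, Acsl3, Soat1 and Acss2 had large falls in both. Rnf145, a ubiquitin ligase of the endoplasmic reticulum that responds to sterols, averaged 44.6 ± 8.31 TPM in B2B1, 51.9 ± 6.43 TPM in B1 and 184 ± 4.5 TPM in B2, with log2 fold changes of −2.04 ± 0.13 (SE, adjusted p = 2.35e-06 by limma) in B2B1 against B2 and −1.82 ± 0.13 (adjusted p = 5.98e-06) in B1 against B2. Acsl3, which activates long-chain fatty acids, averaged 2.78 ± 0.242 TPM in B2B1, 3.19 ± 0.375 TPM in B1 and 12.1 ± 0.885 TPM in B2, with log2 fold changes of −1.79 ± 0.11 (adjusted p = 2.07e-06) in B2B1 and −1.64 ± 0.11 (adjusted p = 4.43e-06) in B1, each against B2. Soat1, which esterifies cholesterol for storage, averaged 18.3 ± 0.358 TPM in B2B1, 24.3 ± 3.43 TPM in B1 and 47.9 ± 4.84 TPM in B2, with log2 fold changes of −1.34 ± 0.11 (adjusted p = 9.87e-06) in B2B1 and −0.96 ± 0.11 (adjusted p = 0.000109) in B1, each against B2. None of the 20 alternative settings ended these calls of Rnf145, Acsl3 and Soat1 against B2.

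Acacb, the mitochondrial acetyl-CoA carboxylase, whose product restrains fatty acid oxidation, went the other way. It had 3.89, 3.38 and 4.699 TPM in the B2B1 libraries, 2.77, 3.904 and 3.05 TPM in the B1 libraries, and 0, 0.0998 and 0.0658 TPM in the B2 libraries. B2 values were at or near 0, every peritoneal value was above them, and Acacb passed the filter for testing only through the peritoneal groups. On the log2(TPM + 1) scale it was higher by 2.23 ± 0.15 (SE, adjusted p = 3.79e-06 by limma) in B2B1 and 1.999 ± 0.15 (adjusted p = 9.79e-06) in B1, each against B2, and with a pseudocount of 0.1 the values were 4.77 and 4.47. Acss2, which makes acetyl-CoA from acetate, averaged 2.74 ± 0.5897 TPM in B2B1, 4.44 ± 0.676 TPM in B1 and 7.96 ± 0.586 TPM in B2, with log2 fold changes of −1.27 ± 0.14 (adjusted p = 6.8e-05) in B2B1 and −0.72 ± 0.14 (adjusted p = 0.00253) in B1, each against B2. Rnf139, another sterol-responsive ubiquitin ligase, was lower in both, with log2 fold changes of −0.97 ± 0.077 (adjusted p = 8.65e-06) in B2B1 and −0.56 ± 0.077 (adjusted p = 0.000349) in B1, each against B2. Mcat, of mitochondrial fatty acid synthesis, was also lower in both, with −0.46 ± 0.072 (adjusted p = 0.000505) in B2B1 and −0.75 ± 0.072 (adjusted p = 3.65e-05) in B1.

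The comparison of B2B1 with B1, both peritoneal, showed the BCR-switched cells with more Sqle, Fdft1, Mvd and Fads1 transcript. Sqle was higher in all 3 B2B1 libraries than in any B1 library, with a log2 fold change of 0.92 ± 0.21 (SE, adjusted p = 0.018 by limma). Fdft1 gave 0.46 ± 0.11 (SE, adjusted p = 0.0184 by limma), Mvd gave 0.38 ± 0.081 (adjusted p = 0.0128) and Fads1 gave 1.17 ± 0.27 (adjusted p = 0.0172), with no overlap between the groups in any of these. Sqle lost its call without B1 library 1 or B1 library 3 (0.81 each, adjusted p = 0.0602 to 0.063), Fdft1 without B2B1 library 2, B1 library 1 or B1 library 3 (0.43 to 0.44, adjusted p = 0.057 to 0.058), and Fads1 without B2B1 library 1, B1 library 1 or B1 library 3 (0.97 to 1.07, adjusted p = 0.0547 to 0.0607). With Xist status as a term all 4 calls ended, those of Mvd (0.35, adjusted p = 0.0844), Fdft1 (0.40, adjusted p = 0.122), Sqle (0.78, adjusted p = 0.117) and Fads1 (1.10, adjusted p = 0.098). Calls over all 11099 tested genes in this comparison fell with that term too, from 2108 to 842. B2B1 library 3 was the 1 B2B1 library of the same Xist status as the B1 libraries. This library had 8.03 TPM of Sqle, against 3.02 to 5.31 TPM in B1, and 25.6 TPM of Mvd, against 17.7 to 21.3 TPM in B1. It had 5.13 TPM of Fdft1, against 3.42 to 4.04 TPM in B1, and 3.09 TPM of Fads1, against 0.592 to 2.23 TPM in B1. With 1 such library, the part of Xist status in these 4 differences cannot be told apart from that of the cell group.

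The other 20 sterol genes were not called in B2B1 against B1. In 95% intervals that are not adjusted for the number of genes, Pmvk gave −0.50 to −0.021 on the log2 scale, Insig1 −0.18 to 0.47, Fdps −0.15 to 0.57 and Srebf1 −0.19 to 0.20. Nsdhl, which did not overlap between these groups, gave 0.35 ± 0.11 (adjusted p = 0.053), and was called with median-of-ratios scaling (0.41, adjusted p = 0.0254) and quantile normalization (0.42, adjusted p = 0.0219). Acat2 gave −0.31 ± 0.17 (adjusted p = 0.225) and was called lower without B2B1 library 2 (−0.50, adjusted p = 0.0336). Scd1 gave −0.72 ± 0.24 (adjusted p = 0.0666), and was called lower in B2B1 without B2B1 library 2 or B1 library 2 (−0.99 to −0.94, adjusted p = 0.00943 to 0.0316). Library weights also gave that call of Scd1 (−0.87, adjusted p = 0.0204). Elovl6 gave 0.49 ± 0.17 (adjusted p = 0.0765) and was called higher with quantile normalization (0.68, adjusted p = 0.029) and with a pseudocount of 0.1 (0.99, adjusted p = 0.0494). Insig1 was called higher when B2B1 library 1 and B1 library 2, were left out together (0.40, adjusted p = 0.0299). Among the 32 other pathway genes, 2 were higher and 5 lower in B2B1 against B1, a share of 21.9% beside 19% of all tested genes. Erlin1, which helps degrade sterol-regulated proteins, was lower, with a log2 fold change of −0.53 ± 0.081 (SE, adjusted p = 0.00308 by limma), and so was Rnf139, with −0.41 ± 0.077 (adjusted p = 0.00737). Acss2 (−0.54 ± 0.14, adjusted p = 0.0297) and Soat1 (−0.38 ± 0.11, adjusted p = 0.042) were also lower, and each lost its call in 12 of the 20 alternative settings. Por, which hands electrons to Cyp51, was lower (−0.28 ± 0.082, adjusted p = 0.043) and lost its call in 16. Mcat was higher (0.29 ± 0.072, adjusted p = 0.0228) and lost its call in 6, while Erlin1 and Rnf139 lost theirs in none of the 20.

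**Figure D4:**
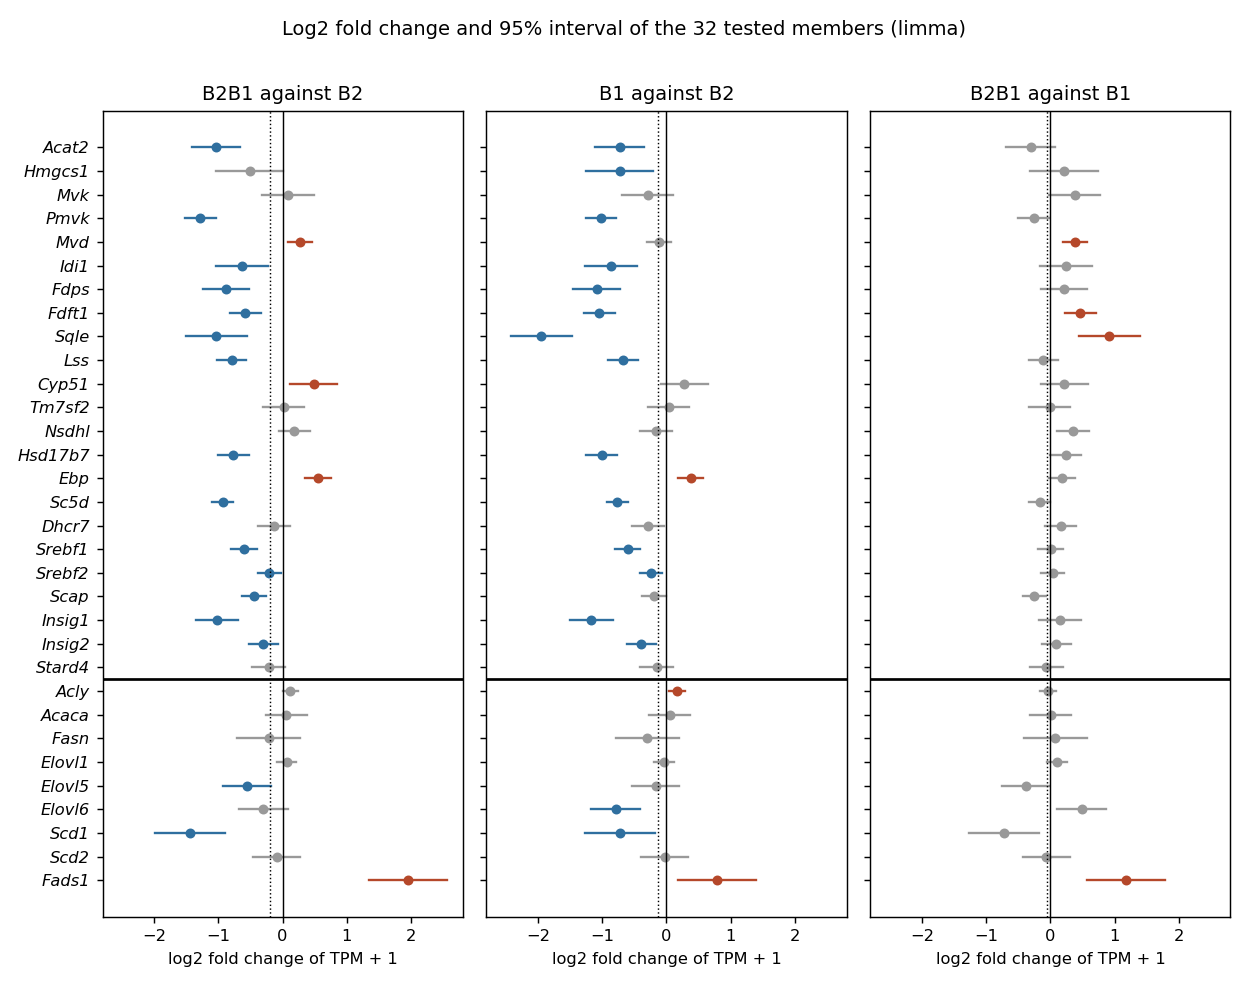
Log2 fold change of each tested member with its 95% interval, 1 panel per comparison, members in pathway order from the top, red where called higher, blue where called lower and grey where not called. The dotted line is the median of all tested genes. Sqle lies furthest to the left of the sterol genes in B1 against B2 (−1.94), and Fads1 furthest to the right in all 3 panels (1.95 in B2B1 against B2, 0.78 in B1 against B2 and 1.17 in B2B1 against B1).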

How the data were processed

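RNA-seq of 9 mouse B cell libraries was analysed from the gene table deposited by the authors, which gives TPM for 22178 gene symbols. Per the labels' protocols, polyA RNA was extracted (Qiagen RNeasy micro) and made into libraries (Illumina TruSeq RNA). The submitters' processing notes name CASAVA 1.8.2, kallisto and the build mm10. No source used here gives the version of kallisto, its transcript set or any use of strand. TPM hold no read counts, so depth is unknown, no interval for counting error can be given and no count model was used. A table of a gene signature was not used here.

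Genes with a mean of at least 1 TPM over the 9 libraries (11099) were fitted as log2(TPM + 1) with limma-trend (limma 3.58.1, R 4.3.3) in a single model of the 3 groups without covariates, with 2.92 prior degrees of freedom. P-values were two-sided, adjusted by the Benjamini-Hochberg method over all tested genes within a comparison, and called under 0.05. The pseudocount of 1 makes fold changes of low genes too small. An exact permutation test of 3 against 3 libraries has a smallest p of 0.1 and was not used. The fit was tested on simulated data.

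The members, the other pathway genes and the marker lists (B cell, macrophage, T cell, neutrophil and mast cell, adipocyte and mesothelium, erythroid, dividing cell) were chosen with earlier results of these data known. Summed markers of neutrophils and mast cells were at most 1.82 TPM and those of erythroid cells at most 9.67 TPM in any library. All members are described, with the values in every library for those called with an absolute log2 fold change of at least 1, and up to 6 other pathway genes a comparison with the largest called change are named. Xist, Ddx3y and the overlapping genes were named after their values were seen.

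Alternatives were pseudocounts of 0.1 and 0.5, no filter, a mean of at least 5 TPM, median-of-ratios scaling (each library divided by the median ratio of its genes to their geometric means), quantile normalization, a fit of only the 2 groups compared, library weights, a replicate block, Xist status (above or below 10 TPM) as a term, and each library left out in turn. Coordinates and overlaps of exons come from GENCODE M21 (GRCm38), and promoter sequences from RefSeq (GRCm38.p6). Python 3.11.15 with matplotlib 3.10.9 drew the figures.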

Additional observations from a re-analysis of the deposited data

How the results depend on the processing

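Over 20 alternative settings, the count of sterol genes called stayed within 13 to 17 in B2B1 against B2 (17 in the fit reported) and within 12 to 17 in B1 against B2 (15 in the fit reported). Leaving out 1 library at a time gave 13 to 16 in both. For fatty acid genes in B2B1 against B2 (3 reported, 1 higher and 2 lower) the count was 2 to 4 in all settings and 2 to 3 with 1 library left out. Its 4 calls were 3 higher and 1 lower with median-of-ratios scaling or quantile normalization, 2 and 2 with library weights, and 1 and 3 with Xist status as a term. Fatty acid counts in B1 against B2 and all counts in B2B1 against B1 were less stable. Over all genes in B2B1 against B1, 2108 were called in the fit reported, 842 with Xist status as a term and 1129 with only the 2 groups compared. No filter gave 1549 of 22178, and leaving 1 library out gave 1336 to 2439. In B1 against B2, calls over all genes were 5765 in the fit reported, 5374 with Xist status as a term and 4724 to 5942 with 1 library left out. For fatty acid genes in B1 against B2 (4 reported), 2 were called with no filter, 2 with a mean of at least 5 TPM, 1 with Xist status as a term, and 2 without both B2B1 library 1 and B1 library 2, an alternative chosen after seeing the data. With 1 library left out this count was 0 to 4, the 0 being without B2 library 2, where limma gave 3 at an unadjusted p under 0.05. For sterol genes in B2B1 against B1 (3 reported), 0 were called with Xist status as a term (4 at an unadjusted p under 0.05), and 1 to 3 with 1 library left out, the 1 being without B1 library 1 or B1 library 3. For fatty acid genes in B2B1 against B1 (1 reported), 2 were called with a pseudocount of 0.1 and with quantile normalization (Fads1 and Elovl6), and with library weights and without both libraries named above. The count was 0 with no filter, with a mean of at least 5 TPM, with only the 2 groups compared and with Xist status as a term (limma, 2 to 3 at an unadjusted p under 0.05). With 1 library left out it was 0 to 2, the 0 being without B2B1 library 1, B1 library 1 or B1 library 3 (1 to 3 at an unadjusted p under 0.05). Of 1905 values of single members, 1779 kept their side of the threshold, 91 lost the call and 34 gained one. The other 1, that of Srebf2 in B2B1 against B2 with median-of-ratios scaling (0.0013), lost its call and changed sign. Values called in neither fit are among the 1779 even where their sign changed. An example is Tm7sf2 in B1 against B2 (0.034 in the fit reported, −0.043 to 0.135 with 1 library left out). With no filter, where 22178 genes were tested, calls ended for Hmgcs1, Srebf2, Scd1 and Fads1 in B1 against B2, for Idi1, Cyp51, Srebf2 and Elovl5 in B2B1 against B2, and for Sqle and Fads1 in B2B1 against B1. The causes were not tested. The replicate numbers did not pair the libraries: deviations of same-numbered libraries correlated at −0.058 to 0.123, and not every library correlated best with its own number. With a replicate block, 16 sterol and 3 fatty acid genes were called in B2B1 against B2, 16 and 3 in B1 against B2, and 3 and 1 in B2B1 against B1. Not called with the block were Scd1 in B1 against B2 (−0.72, adjusted p = 0.0612) and Srebf2 in B2B1 against B2 (−0.20, adjusted p = 0.0715), and Dhcr7 in B1 against B2 was called (−0.29, adjusted p = 0.035). Because TPM keep no depth, how far depth limits the low members, such as Fads1, Elovl6 and Fads2, is unknown.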
